A study of Trichosurus vulpecula with 6 samples.

Results

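The core genes of the circadian clock, PER1, PER2, PER3, CRY1, CRY2, CLOCK, NR1D1, NR1D2 and DBP, were followed in ear punch skin of 3 black and 3 grey brushtail possums (Trichosurus vulpecula), all adult females. They were taken by name, not by level, and all 9 of 9 had assembled transcripts in every library, among 18160 genes with transcripts in the series. Each library came from 1 animal caught in Dunedin, New Zealand, and was made poly(A)-enriched and strand-specific from 250 ng of RNA. Levels are in TPM, which scales the abundance of a transcript to its length and to the size of the library, summed over the transcripts of a gene. The labels of the black and grey animals differ in coat colour alone and name no treatment. The time of day at which each ear was punched is not given in the sources used here, so its part in any difference between animals was not tested.

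In mammals the clock is a loop of transcription that runs over about a day in most cells, skin included. CLOCK, or its relative NPAS2, pairs with the protein of ARNTL (BMAL1) and drives the PER and CRY genes, whose proteins enter the nucleus and repress that pair. In a second loop the nuclear receptors NR1D1 and NR1D2 (REV-ERB alpha and beta) repress ARNTL, and DBP, a transcription factor of the PAR bZIP family, carries the rhythm to output genes. The RNA of the PER, NR1D and DBP genes therefore varies with time of day in the tissues of laboratory mammals. PER1 is in addition induced by glucocorticoids and by other acute signals.

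None of the 9 genes passed the test for a difference between black and grey skin, and the animals of 1 coat colour spread widely for several of them. In limma, a linear model with moderated variance fitted to log2(TPM + 1) of 15642 genes, 0 of 9 had a Benjamini-Hochberg adjusted p under 0.05, against 0.0192% of all genes tested (3 genes). At an unadjusted p under 0.05 the count was again 0, against 2.31% of all genes. The TPM of black and grey skin overlapped for every member, whereas they did not overlap for 6.35% of all genes. Coverage over the exonic bases of a gene that were assembled in all 6 libraries, per aligned gigabase (shared exonic bases, a scale added after the data were seen), does not depend on the length to which a gene was assembled. On it, again 0 of 9 members were called and 0 did not overlap, against 0.0211% and 6.05% of all genes. Of the 9 differences 8 were above 0, as were 57.1% of all genes, and the median difference was 0.13 on the log2(TPM + 1) scale, beside 0.04 over all genes. For 7 of the 9 the difference between coat colours was smaller than the SD between animals in the coat colour with the larger spread.

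Mean levels over the 6 libraries, in TPM, ran from PER1 at 58.6 and NR1D1 at 50.1 through CRY1 at 29.8, NR1D2 at 25.1, the transcript named DBP at 24.3, CRY2 at 24.1, PER3 at 22.1 and PER2 at 17.9 down to CLOCK at 7.17. Neighbours in this order overlapped across libraries except at the low end, where the highest CLOCK value, 9.06 TPM, lay under the lowest PER2 value, 11.8 TPM. The coverage behind a gene in 1 library was equivalent to between 492.5 reads of 120 bp (CLOCK in grey 1) and 17780 reads (PER1 in black 1), and to between 149.8 and 435 reads for the transcript named DBP. In skin pieces, fewer cells of a type and less RNA per cell cannot be told apart.

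**Figure D1:**
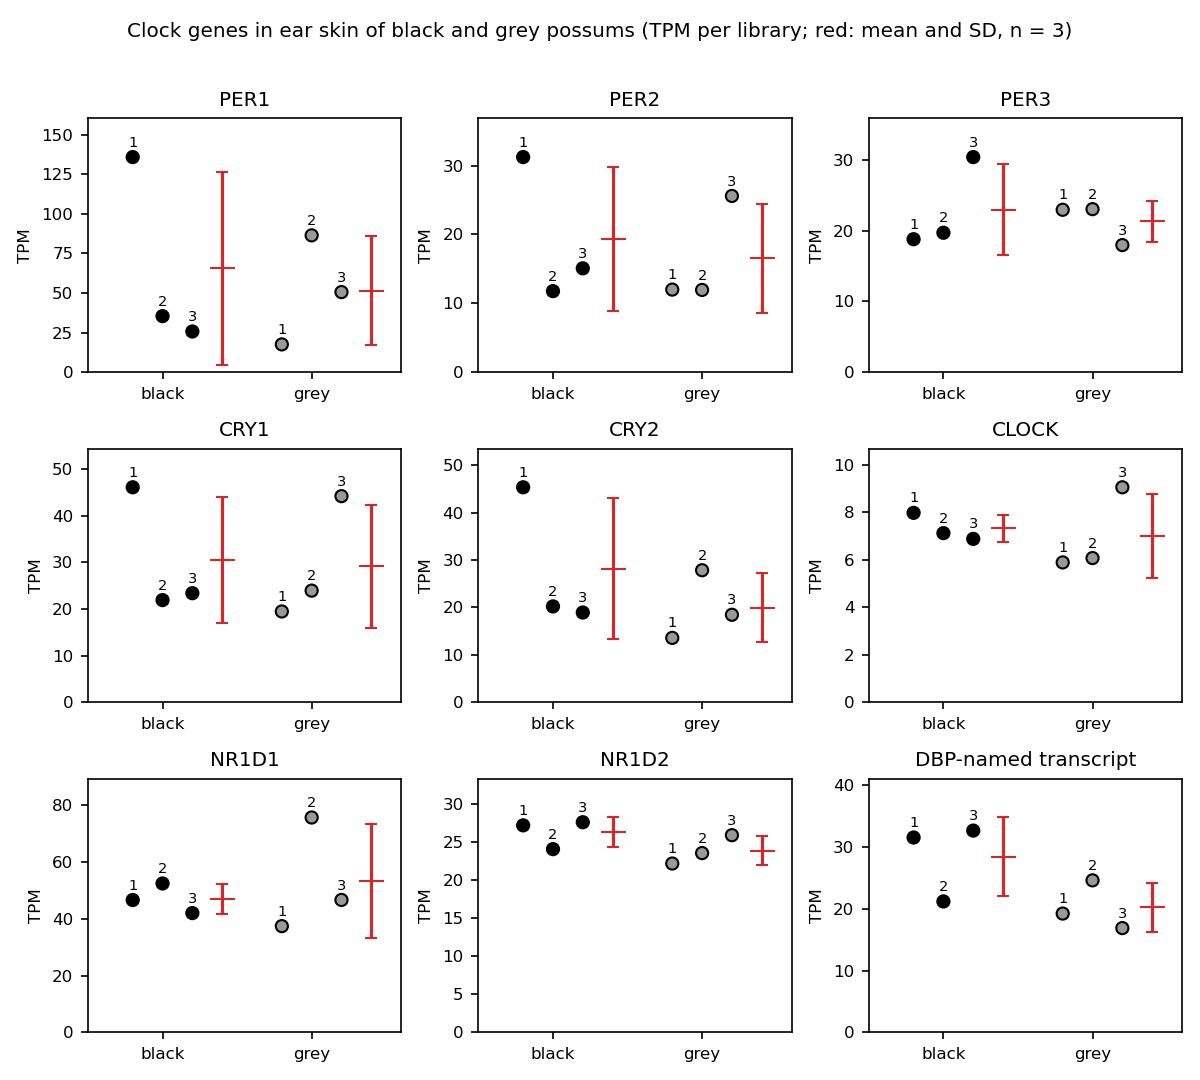
TPM of the 9 clock genes in each library, with black skin on the left and grey skin on the right of each panel. Points are libraries with their replicate number, and red marks give the mean and SD of 3 libraries. PER1 spans 7.78-fold and NR1D2 1.24-fold, and black and grey overlap in every panel.

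Among the repressors, PER1 varied most. Its level was 136, 35.4 and 25.7 TPM in black 1, 2 and 3, against 17.5, 86.5 and 50.6 TPM in grey 1, 2 and 3. Both coat colours held 1 high and 1 low animal, and the highest library (black 1) exceeded the lowest (grey 1) 7.78-fold. The means were 65.7 ± 61.1 TPM in black skin and 51.5 ± 34.5 TPM in grey skin (SD, n = 3 each), a log2 difference of 0.22 ± 0.76 (SE, 95% interval -1.59 to 2.04, limma adjusted p = 1). The interval spans more than a doubling in both directions, so these libraries could not have shown a change of that size. Of the genes tested, 95.6% had a smaller SD within coat colours than PER1 (1.20 on the log2 scale). PER1 lies on chromosome 7 (assembly mTriVul1.pri, 260244407 to 260267125, plus strand) next to VAMP2 and HES7, and its most complete transcripts had 22 to 23 exons in each library.

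PER2, the partner of PER1 in the repressor complex, was high in 1 animal of each coat colour. It had 31.2, 11.8 and 15.1 TPM in black 1, 2 and 3, against 11.98, 11.9 and 25.6 TPM in grey 1, 2 and 3. Black 1 and grey 3 stood apart from the other 4 libraries, which lay between 11.8 and 15.1 TPM. The log2 difference was 0.19 ± 0.43 (SE, interval -0.84 to 1.22, limma adjusted p = 1).

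In black 1 and grey 3, part of the PER2 level came from transcripts of 534 to 1387 nt at the 5′ end. The gene lies on chromosome 7 (12978743 to 13027496, minus strand). Transcripts of at most 3 exons, a class chosen after the transcripts were seen, made up 44.1% of PER2 TPM in black 1, 0% in black 2 and 15.6% in black 3. In grey 1, 2 and 3 they made up 22.5%, 36.4% and 48.4%. The class was not short in grey 2, where it was 1 transcript of 6264 nt, and in grey 1 it reached the 3′ end of the gene. The transcripts of more than 3 exons had 17.5, 11.8 and 12.7 TPM in black 1, 2 and 3, against 9.29, 7.59 and 13.2 TPM in grey 1, 2 and 3. Black 1 and grey 3 were still the highest, but by a smaller margin. The 5604 shared exonic bases gave a coverage per aligned gigabase of 8.44, 6.20 and 6.25 in black 1, 2 and 3, against 3.07, 4.12 and 6.77 in grey 1, 2 and 3. On this scale the log2 difference of PER2 was 0.58 ± 0.28 (SE, limma adjusted p = 1), the largest shift of any member from its TPM value.

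PER3, the third period gene (chromosome 2, 21774092 to 21806277, minus strand), ran the other way. Its TPM were 18.8, 19.7 and 30.4 in black 1, 2 and 3, against 22.9, 23.0 and 17.95 in grey 1, 2 and 3. Black 3 was the highest, and black 1 and grey 3, the libraries with most PER2, were low together with black 2. The log2 difference was 0.08 ± 0.23 (SE, interval -0.47 to 0.63, limma adjusted p = 1). The TPM ratio of PER3 to PER2 was 0.60, 1.68 and 2.02 in black 1, 2 and 3, against 1.91, 1.93 and 0.70 in grey 1, 2 and 3. On shared exonic bases the ratio was 1.07, 1.39 and 2.39 in black skin and 3.14, 2.52 and 1.37 in grey skin, so that the low values no longer stood apart from black 2. The ratio of PER3 to CRY1 on shared exonic bases still did, with 0.37, 0.75 and 1.21 in black 1, 2 and 3, against 0.96, 0.98 and 0.39 in grey 1, 2 and 3.

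The cryptochromes, which bind the PER proteins and repress CLOCK, differed in which animals were high. CRY1 had 46.1, 21.9 and 23.4 TPM in black 1, 2 and 3, against 19.5, 23.9 and 44.2 TPM in grey 1, 2 and 3. Black 1 and grey 3 again stood apart, at nearly the same level, and the other 4 libraries lay between 19.5 and 23.9 TPM. For CRY1 the shared exonic bases gave the same separation, 24.6, 11.6 and 12.3 in black skin, against 10.1, 10.6 and 24.0 in grey skin. The log2 difference in TPM was 0.06 ± 0.39 (SE, interval -0.87 to 1.00, limma adjusted p = 1).

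CRY2 had 45.3, 20.2 and 18.9 TPM in black 1, 2 and 3, against 13.6, 27.8 and 18.5 TPM in grey 1, 2 and 3. Black 1 was highest and grey 2 second, the same 2 libraries in the same order as for PER1, and grey 3, high for CRY1, was second lowest. Its log2 difference was 0.42 ± 0.40 (SE, interval -0.53 to 1.37, limma adjusted p = 1). CRY1 (chromosome 5, 290549089 to 290600889, minus strand) and CRY2 (chromosome 6, 257478590 to 257506346, plus strand) were assembled with up to 13 exons each.

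CLOCK, the activator of the PER and CRY genes, was low and even. It had 7.98, 7.13 and 6.88 TPM in black 1, 2 and 3, against 5.89, 6.07 and 9.06 TPM in grey 1, 2 and 3, with grey 3 above and the other grey animals below all black ones. The log2 difference was 0.08 ± 0.22 (SE, interval -0.45 to 0.60, limma adjusted p = 1), and 0.00 on shared exonic bases. The 3′ end of CLOCK (chromosome 6, 155143577 to 155259940, plus strand) differed between libraries. In black 1, 2 and 3 and in grey 3 every CLOCK transcript ran 7218 to 7286 bases past the end of the RefSeq span, whereas in grey 1 and 2 all of them stopped 1655 bases past it. The longest transcript was accordingly 4753 to 10573 nt. Aligned gigabases were 7.58, 8.51 and 6.47 in black 1, 2 and 3, against 4.17, 8.37 and 10.2 in grey 1, 2 and 3, and the part of depth in this difference was not tested.

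The REV-ERB genes differed from each other in spread. NR1D1 had 46.6, 52.4 and 42.0 TPM in black 1, 2 and 3, against 37.4, 75.6 and 46.6 TPM in grey 1, 2 and 3. Grey 2 alone was high, and the other 5 libraries lay between 37.4 and 52.4 TPM. NR1D1 was the only member with a lower mean in black skin, 47.0 ± 5.22 TPM against 53.2 ± 19.95 TPM in grey skin (SD, n = 3 each), and its log2 difference of -0.12 ± 0.27 (SE, interval -0.76 to 0.52, limma adjusted p = 1) was within the spread.

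NR1D2 (chromosome 5, 31024516 to 31074352, minus strand) had 27.2, 24.1 and 27.6 TPM in black 1, 2 and 3, against 22.2, 23.5 and 25.9 TPM in grey 1, 2 and 3. The highest and lowest libraries differed by 1.24-fold, and only 4.15% of the genes tested had a smaller SD within coat colours. The log2 difference was 0.13 ± 0.15 (SE, interval -0.23 to 0.49, limma adjusted p = 1), the most closely bounded of the 9. NR1D1 (chromosome 4, 185035894 to 185044166, plus strand) was assembled as 1 transcript of 8 exons in each library. Its downstream neighbour THRA starts at 185044500, past the NR1D1 span.

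DBP could not be assigned with the same certainty. The RefSeq table holds no gene with that symbol, and the name came from the annotation that guided the assembly, which carries identifiers of other species. The transcript it names DBP is a single exon of 435 nt on chromosome 3 (200520302 to 200520736, plus strand), inside the span of LOC118842365 and between ARFGEF2 and PREX1. In human, DBP lies between CA11 and SPHK2. In the possum the RefSeq gene between those neighbours is LOC118837757 (chromosome 2, 16347990 to 16351954, assembled on the plus strand), which carries no symbol, and which of these loci is possum DBP was not tested.

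The transcript named DBP had 31.5, 21.2 and 32.6 TPM in black 1, 2 and 3, against 19.2, 24.6 and 16.9 TPM in grey 1, 2 and 3. Black 1 and 3 were above all grey animals, and black 2 lay within the range of the grey ones. The mean was 28.4 ± 6.32 TPM in black skin and 20.2 ± 3.96 TPM in grey skin (SD, n = 3 each), with a log2 difference of 0.46 ± 0.23 (SE, interval -0.09 to 1.02), the largest of the members in TPM. It did not pass the test (limma adjusted p = 1). LOC118837757 had 52.2, 38.5 and 61.3 TPM in black 1, 2 and 3, against 43.2, 48.7 and 36.3 TPM in grey 1, 2 and 3, a log2 difference of 0.23 ± 0.22 (SE, limma adjusted p = 1). The 2 loci kept nearly the same order of libraries, and the level of LOC118837757 was 1.66, 1.82 and 1.88 times that of the named transcript in black 1, 2 and 3, against 2.25, 1.98 and 2.15 times in grey 1, 2 and 3.

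**Figure D2:**
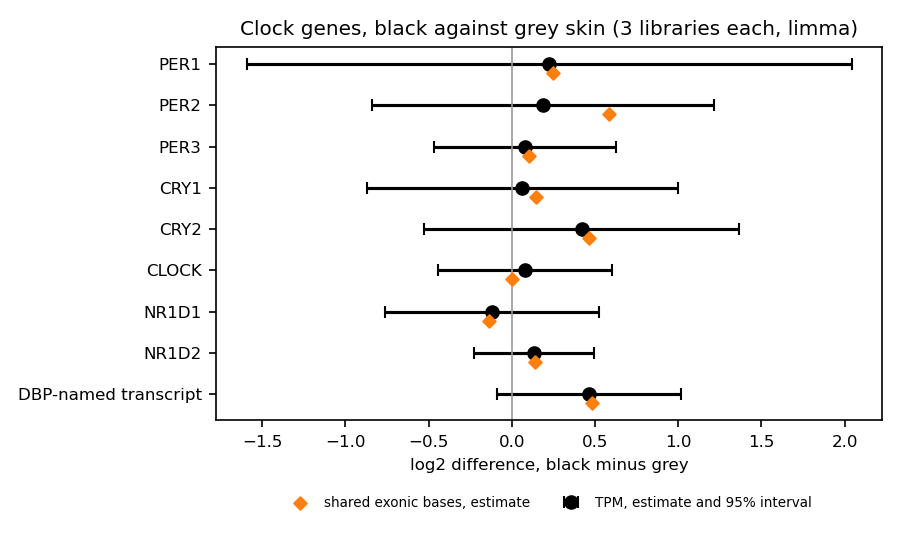
Difference between black and grey skin for each clock gene on the log2 scale, black minus grey, with 3 libraries in each coat colour. Circles and bars are the limma estimate and 95% interval from log2(TPM + 1), and diamonds the estimate from shared exonic bases. Every interval includes 0, and the PER2 diamond (0.58) lies farthest from its circle (0.19).

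Co-variation of the PER, NR1D and DBP genes, all of them rhythmic in laboratory mammals, was measured next. They did not move as 1 block over the 6 libraries. The median of the 15 pairwise Pearson correlations among PER1, PER2, PER3, NR1D1, NR1D2 and the transcript named DBP was 0.17, with 10 pairs positive and 5 negative. After subtraction of the mean of each coat colour it was 0.26. For comparison, the median r of all genes tested ran from 0.02 with PER2 to 0.14 with the transcript named DBP. Among all 36 pairs of the 9 members the median was 0.39, and 0.35 with the coat colour means subtracted, with 25 pairs positive and 11 negative and the sign kept in 36 of 36. No pair had an adjusted p under 0.05 in an exact 2-sided permutation test over all 720 pairings of the 6 libraries, by Pearson or by Spearman correlation, and 3 pairs had an unadjusted Pearson p under 0.05.

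PER1 and CRY2 were the pair with the smallest p. Their Pearson r was 0.93 (exact permutation p = 0.00556, adjusted over 36 pairs p = 0.2) and Spearman's rho was 0.83 (exact permutation p = 0.0583, adjusted p = 0.669). The relation was as strong with the coat colour means subtracted (r = 0.98) and on shared exonic bases (r = 0.93), and r was 0.80 without black 1 and grey 1, the libraries farthest from the PER1 median. Of the 15642 genes, 0.595% had a higher r with PER1 than CRY2 had, and the median r of all genes with PER1 was 0.07.

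Patterns shared by several genes could be read from the levels in each library, and are given as descriptions with the other clock genes beside them. In the first, PER1 and CRY2 were highest in black 1, second in grey 2 and lowest in grey 1. CIART, a repressor of the CLOCK and ARNTL pair, followed the same extremes with grey 2 above black 1: 45.3, 30.0 and 18.4 TPM in black 1, 2 and 3, against 12.5, 67.2 and 16.8 TPM in grey 1, 2 and 3. BHLHE40, a transcriptional repressor that the clock induces, had 119.1, 106.9 and 81.7 TPM in black 1, 2 and 3, against 45.7, 118.9 and 78.3 TPM in grey 1, 2 and 3. RORA, a nuclear receptor that opposes the REV-ERBs, was likewise lowest in grey 1 at 34.2 TPM and highest in grey 2 at 77.5 TPM. NR1D1 shared the high value of grey 2 and the low value of grey 1 but not the high value of black 1.

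In the second pattern PER2, CRY1, CLOCK and NPAS2 had their highest TPM in black 1 and grey 3. NPAS2, the relative of CLOCK, had 13.2, 8.56 and 9.06 TPM in black 1, 2 and 3, against 6.70, 6.90 and 14.6 TPM in grey 1, 2 and 3. Since these 2 libraries stood apart from the other 4 for PER2 and CRY1, no TPM correlation over all 6 is given for that pair. Without them r between PER2 and CRY1 was 0.39 over 4 libraries, which is too few for a test. On shared exonic bases PER2 and CRY1 kept black 1 and grey 3 as their highest libraries, but CLOCK kept grey 3 alone, with 3.32, 3.57 and 3.43 in black 1, 2 and 3, against 2.93, 2.98 and 4.63 in grey 1, 2 and 3. NPAS2 on that scale had 4.49, 3.80 and 4.44 in black 1, 2 and 3, against 2.59, 3.13 and 6.74 in grey 1, 2 and 3, so that black 1 and black 3 were nearly equal. CLOCK was graded over the libraries, whereas NPAS2 TPM stood apart in black 1 and grey 3. The r of CLOCK and NPAS2 was 0.97 (exact permutation p = 0.00417, adjusted p = 0.25 over 90 pairs of a member with LOC118837757 or 1 of 9 other clock genes). Spearman's rho was 0.94 (p = 0.0167, adjusted p = 0.375, exact permutation). Without grey 1 and grey 3, the libraries farthest from the CLOCK median, r was 0.96, but black 1 was still among those used. On shared exonic bases r was 0.93.

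ARNTL, the partner of CLOCK, looked like a member of the second pattern in TPM, with 46.1, 31.8 and 29.8 TPM in black 1, 2 and 3, against 28.1, 27.1 and 40.6 TPM in grey 1, 2 and 3. In black 1, however, 71.7% of its TPM belonged to transcripts of at most 3 exons and at most 500 nt, whereas transcripts of at most 3 exons made up 28.5% to 33.7% in the other 5 libraries. Its transcripts of more than 3 exons had 13.0, 21.9 and 19.7 TPM in black 1, 2 and 3, against 18.7, 19.4 and 28.2 TPM in grey 1, 2 and 3. Black 1, highest for all transcripts, was thus lowest for those of more than 3 exons. It was lowest on shared exonic bases too (7.44, 11.0 and 9.02 in black skin, against 9.26, 8.67 and 14.1 in grey skin). CRY1 in black 1 held no transcript of at most 3 exons, so its high value there did not rest on that class.

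The third pattern was that of the transcript named DBP, LOC118837757 and PER3, which had their highest TPM in black 3 and their lowest in grey 3. On shared exonic bases PER3 was highest in black 3 but not lowest in grey 3, with 9.001, 8.64 and 14.9 in black 1, 2 and 3, against 9.65, 10.4 and 9.30 in grey 1, 2 and 3. For the transcript named DBP and LOC118837757 r was 0.93 (exact permutation p = 0.0111, adjusted p = 0.25 over the same 90 pairs) and Spearman's rho was 0.94 (p = 0.0167, adjusted p = 0.375, exact permutation). Without the 2 farthest libraries r was 0.81, and on shared exonic bases it was 0.92. PER3 was in addition low in black 1, where the other 2 were high. BHLHE41, the closest relative of BHLHE40, had 12.6, 14.95 and 18.2 TPM in black 1, 2 and 3, against 14.3, 19.2 and 10.4 TPM in grey 1, 2 and 3, and so shared the low value of grey 3.

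**Figure D3:**
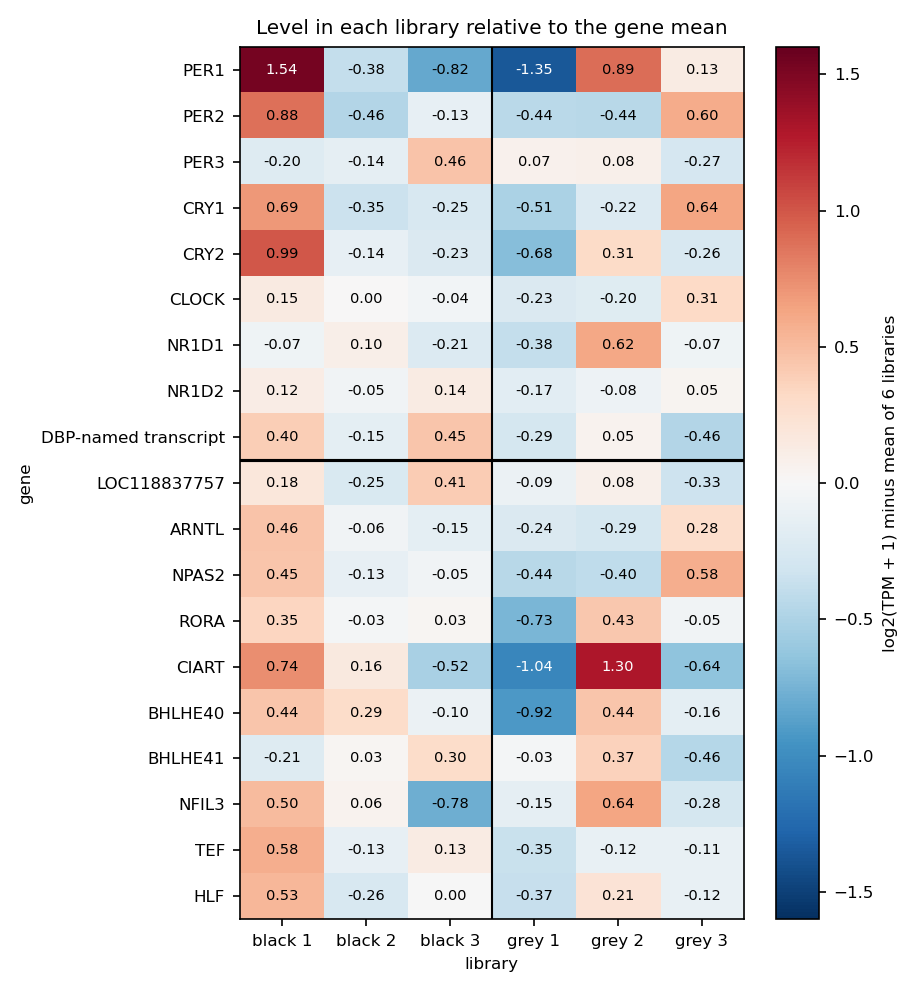
Level of each gene in each library as log2(TPM + 1) minus the mean of that gene over 6 libraries, with black libraries on the left and grey ones on the right. The 9 members stand above the line, and LOC118837757 and 9 other clock genes below it. PER1 ranges from 1.54 in black 1 to -1.35 in grey 1, and PER2, CRY1 and NPAS2 are high in black 1 and grey 3.

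**Figure D4:**
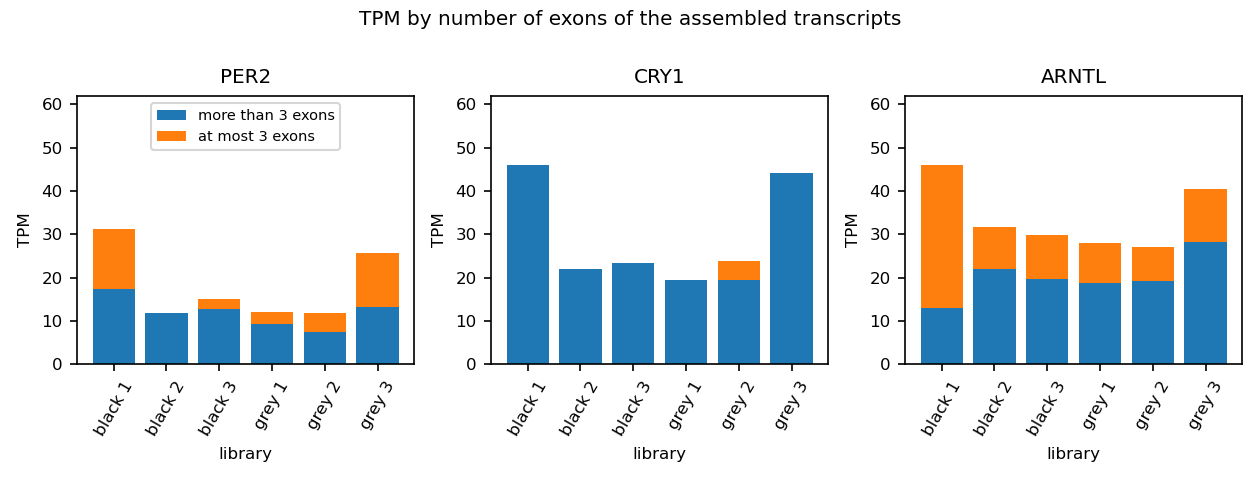
TPM of PER2, CRY1 and ARNTL in each library, divided into assembled transcripts of at most 3 exons and of more than 3 exons. In black 1 the class of at most 3 exons holds 44.1% of PER2 and 71.7% of ARNTL but none of CRY1.

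The PAR bZIP relatives of DBP, TEF and HLF, were both highest in black 1 and lowest in grey 1. TEF had 38.0, 22.8 and 27.6 TPM in black 1, 2 and 3, against 19.4, 23.1 and 23.1 TPM in grey 1, 2 and 3, with black 2 inside the range of grey skin. HLF had 26.5, 14.9 and 18.01 TPM in black 1, 2 and 3, against 13.8, 21.1 and 16.5 TPM in grey 1, 2 and 3. HLF ran with CRY2 (r = 0.95, exact permutation p = 0.00694, adjusted p = 0.25; rho = 0.83, exact permutation p = 0.0583, adjusted p = 0.404; r = 0.76 without the 2 farthest libraries). NFIL3, a repressor that competes with the PAR bZIP factors for their sites, had 21.2, 15.4 and 8.16 TPM in black 1, 2 and 3, against 13.2, 23.4 and 11.95 TPM in grey 1, 2 and 3, with grey 2 highest and black 3 lowest.

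**Figure D5:**
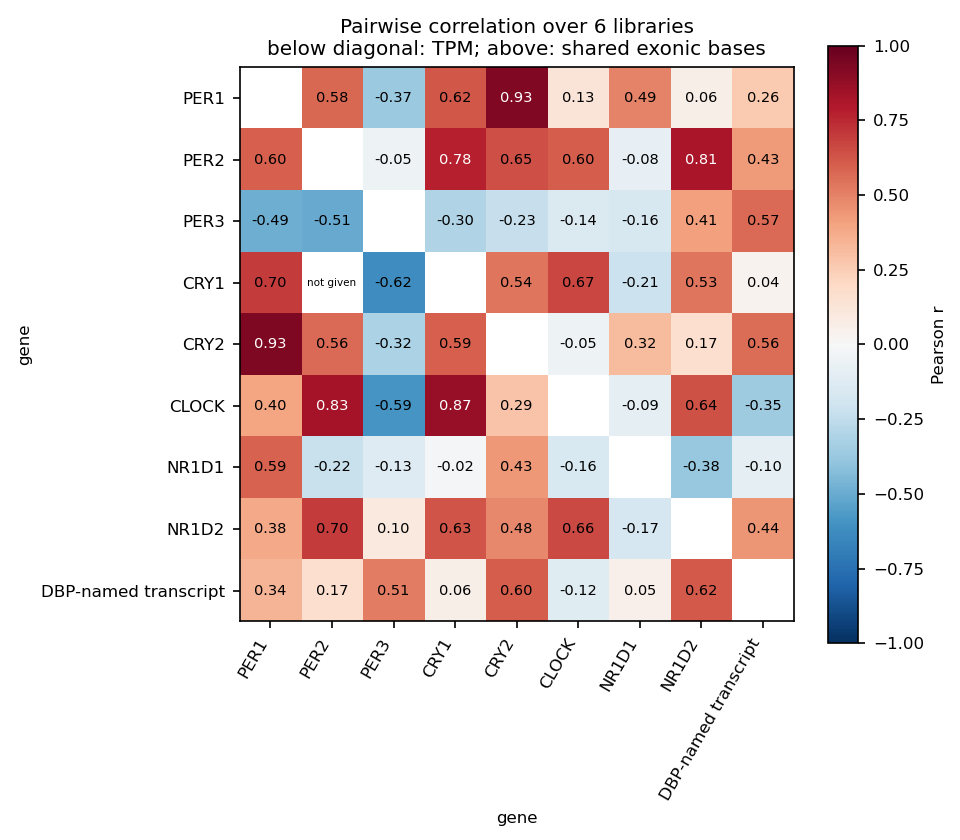
Pearson correlation of each pair of clock genes over 6 libraries, from log2(TPM + 1) below the diagonal and from shared exonic bases above it. PER1 and CRY2 reach 0.93 on both scales. No TPM correlation is given for PER2 and CRY1, for which 2 libraries stand apart from the other 4.

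The remaining clock genes gave no call between coat colours either. Of 6 clock activators 5 were tested and 0 were called, of 13 repressors and modifiers 11 were tested and 0 were called, and of 7 output genes 7 were tested and 0 were called. Their median log2 differences were 0.18, 0.08 and -0.01, beside 0.04 over all genes. CSNK1E, a kinase that phosphorylates the PER proteins, was the only one of them with an unadjusted p under 0.05 and was singled out after its values were seen. It had 23.9, 25.2 and 31.6 TPM in black 1, 2 and 3, against 19.3, 21.7 and 17.2 TPM in grey 1, 2 and 3 (log2 difference 0.45 ± 0.18 SE, limma adjusted p = 1). The groups did not overlap in TPM, but on shared exonic bases they did, and the log2 difference was -0.04.

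The genes whose levels were most like those of a member were all outside the clock lists used here. Likeness was the Pearson r of log2(TPM + 1) over 6 libraries, among all genes with a symbol. The nearest genes were FBRSL1, TNRC6B and STIM2 for PER1 (r = 0.98 to 0.99), FAM177A1, DXO and NDUFAF6 for PER2 (0.99), ETV1, ITGB1 and DEPTOR for PER3 (0.99 to 1.00), CRK, RAB22A and STIM1 for CRY1 (0.99 to 1.00), and SLC8A3, NOL7 and MIDEAS for CRY2 (0.98 to 0.99). For CLOCK they were PRR3, MAP7D2 and AIMP1 (0.99 to 1.00), for NR1D1 PRKAR1B, EPB41L4B and MOSPD2 (0.98 to 1.00), for NR1D2 IRAK2, DDB2 and CAPN3 (0.98 to 0.99) and for the transcript named DBP SLC22A16, YES1 and RSU1 (0.98 to 1.00). These genes were picked as the 3 highest among all genes with a symbol, over only 6 points. At a lower bar, 1.37% of all genes had an r past 0.9 with PER1, 2.81% with CRY1 and 0.652% with NR1D1. The mean standardized profile of the 6 PER, NR1D and DBP genes was 0.67, -0.37 and 0.41 in black 1, 2 and 3, against -0.83, 0.27 and -0.15 in grey 1, 2 and 3. RAD21, a cohesin subunit, followed it most closely (r = 0.999) ahead of ING3, SEMA4G, RIPK2 and LRRC8D, and SDC2, SLC39A14, LIPG, CNPY4 and EIF1B ran most against it (r = -0.99 to -0.98).

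Libraries that stood out in these patterns also differed in other ways, most of them particular to 1 library. Black 1, the highest library for PER1, PER2, CRY1 and CRY2, had high levels of muscle RNA. There 11 measured skeletal muscle genes summed to 3664 TPM, against 8.89 to 18.9 TPM in the other 5 libraries, where the defining genes CKM and TTN were listed at 0. Grey 1, the lowest library for 6 of the 9 members, was the shallowest and had a hair follicle sum of 1049 TPM (7 measured genes, KRT25 alone 687), against 99.6 to 169.9 TPM in the other libraries. Transcripts assigned to RefSeq genes held 81.1% of TPM in grey 1, against 86.9% to 88.9% in the other libraries, which lowers the TPM of genes there. Black 3, with most PER3 and named DBP transcript, had the highest level of 10 of 12 cell cycle genes, with a summed level of 306.1 TPM against 165.6 to 234.1 TPM elsewhere, and also the highest macrophage sum, 1640 TPM against 500.9 to 842.4 TPM. Grey 2 was second for PER1 and CRY2 and highest for NR1D1 and CIART. It had the highest smooth muscle sum, 1446 TPM over 8 genes, of which 7 were highest there. Black 1 followed at 1332 TPM, against 528.2 to 948.8 TPM in the other 4 libraries. The place of black 1 rested on DES, with 605.5 TPM there and 1.70 to 3.16 TPM in the other 5 libraries. The melanocyte sum of grey 2, 274.9 TPM, was the highest too, close to 269.9 TPM in black 3. The other libraries had 87.8 to 167.7 TPM. Grey 3, which shared high PER2 and CRY1 with black 1, had the lowest fibroblast sum, 1107 TPM over 7 genes, against 2523 to 3885 TPM in the other 5. Of 8 listed basal keratinocyte genes 5 had assembled transcripts, and they summed to 571.4 to 682.1 TPM in black skin and 416.7 to 574.6 TPM in grey skin. Of 10 suprabasal genes 4 had assembled transcripts, and 1 of them, IVL, was listed at 0 in black 1. The part of these differences in the clock gene levels was not tested. Without black 1 the log2 differences of PER1, PER2 and CRY1 were -0.49, -0.20 and -0.27, opposite in sign to those with it, and 0 of 9 members were called.

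Lists of acute signals were read in the same libraries because PER1 responds to them. The 9 measured glucocorticoid response genes summed to 518.1, 299.4 and 271.2 TPM in black 1, 2 and 3, against 308.7, 365.3 and 435.2 TPM in grey 1, 2 and 3, highest in black 1 and second in grey 3. Their most abundant members were CDKN1A, with 220.1, 78.0 and 85.6 TPM in black 1, 2 and 3, against 96.6, 78.6 and 105.9 TPM in grey 1, 2 and 3, and then TSC22D3 and SGK1. The place of black 1 in the sum rested on CDKN1A. The other 8 genes summed to 298.0, 221.4 and 185.6 TPM in black 1, 2 and 3, against 212.2, 286.6 and 329.3 TPM in grey 1, 2 and 3, highest in grey 3. Gene by gene, black 1 was highest for 5 of the 9 (CDKN1A, SGK1, ERRFI1, KLF9 and ZBTB16), grey 3 for 3 and grey 2 for 1. Immediate early genes, which respond to handling and wounding within minutes, were lowest in sum in black 1 (248.7 TPM) and highest in grey 3 (454.4 TPM), with IER3, IER2 and JUNB the most abundant. IER3 had 35.4, 44.2 and 31.0 TPM in black 1, 2 and 3, against 58.5, 82.4 and 71.8 TPM in grey 1, 2 and 3, without overlap between the coat colours, but it did not pass the test (limma adjusted p = 1). Of the cell cycle list PCNA, CCNB1 and MKI67 were the most abundant. No gene of these 3 lists was called between coat colours.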

How the data were processed

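RNA-sequencing of ear punch skin gave 1 file of assembled transcripts for each of 6 libraries (3 black, 3 grey). The authors trimmed 120 bp single-end reads with Trim Galore (version 0.6.10), mapped them with HISAT2 (version 2.2.1), filtered out amplicon contamination and used StringTie (version 2.2.0) to build transcripts, library by library. The values the authors deposited are TPM, FPKM and coverage per transcript, which are not read counts. Aligned bases, from the ratio of coverage to FPKM, were 4.17 to 10.2 gigabases per library. A gene assembled to different lengths in different libraries changes in TPM, so coverage over exonic bases assembled in all 6 libraries was added as an alternative.

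Of 274079 transcripts 231839 were assigned to 17943 genes by same-strand exon overlap with RefSeq genes (assembly mTriVul1.pri). The RefSeq table gives spans only, so exons and strand came from assembled transcripts that matched a span (at least 0.5 of the joint span, or 80% inside it). Others kept the name in the files, which gave 18160 genes.

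TPM was summed per gene. Genes averaging 1 TPM or more (15642) were compared with limma (version 3.58.1, R version 4.3.3, variance trend) on log2(TPM + 1), with Benjamini-Hochberg adjustment over all of them at 0.05. Fold changes on this scale understate changes of low genes. The fit was tested on simulated data, and the permutation test on a case with a known p. Correlations used exact permutations (Python version 3.11.15, scipy version 1.17.1). Each library is 1 animal, and replicate numbers were not stated to pair animals.

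The members, the 20 gene lists and the alternatives were chosen with earlier results of these data known. Named were the 9 members, 9 other clock genes and any that passed the test, the 3 genes most like each member, the 5 most like and most unlike the mean profile, and the 3 most abundant of the glucocorticoid, immediate early and cell cycle lists. LOC118837757, CSNK1E and the classes by exon number were chosen after the data were seen. No sequences of these genes were used here.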

Additional observations from a re-analysis of the deposited data

How the results depend on the processing

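The count of members that differed between black and grey skin was 0 under every alternative run (other pseudocounts, filters, scalings, FPKM, no variance trend, a replicate block, multi-exon transcripts, shared exonic bases, and each library left out), with a lowest adjusted p of 0.992 in limma. With the names in the files, which leave only DBP to be tested, it was 0.962. Of 144 member values under the alternatives 133 kept their direction and 11 turned, all when 1 library was left out. The filters, the fit without a variance trend and the replicate block leave the log2 difference of a member unchanged, so those values could not turn. Multi-exon transcripts and the names in the files also gave the same differences for the members they held. Without black replicate 1 the log2 differences were -0.49 for PER1, -0.20 for PER2 and -0.27 for CRY1. Without black replicate 3 that of PER3 was -0.13. Without grey replicate 1 they were -0.40 for PER1, -0.17 for CRY1 and -0.020 for CLOCK, without grey replicate 2 they were -0.03 for CRY1, -0.0015 for CLOCK and 0.16 for NR1D1, and without grey replicate 3 that of PER3 was -0.03. Over the libraries left out in turn the range was -0.49 to 0.73 for PER1, -0.20 to 0.53 for PER2, -0.13 to 0.20 for PER3, -0.27 to 0.40 for CRY1, -0.020 to 0.25 for CLOCK and -0.34 to 0.16 for NR1D1. CRY2, NR1D2 and the transcript named DBP kept their direction in each of these (0.03 to 0.68, 0.08 to 0.19 and 0.35 to 0.66).

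The median r of the PER, NR1D and DBP genes, 0.17, was 0.04 to 0.31 with 1 library left out and -0.016 over 10 pairs once the transcript named DBP, which has 1 exon, was dropped, as it is when only multi-exon transcripts are used. It was 0.06 after upper quartile scaling, 0.10 with LOC118837757 in its place, and 0.26 on shared exonic bases. With the names in the files in place of overlap, 1 member (DBP) had transcripts in every library, since the files name few possum genes, and no median r could be had. The replicate numbers were not stated to pair the animals. Over all genes tested, the deviations of same-numbered libraries had correlations of -0.058 to 0.013. These cannot decide whether animals were paired, since a pairing may touch few genes. With a replicate block 0 members were called, calls over all genes went to 0 against 3 without it, and the median r was 0.36. Between 0 and 4 genes were called over all genes under the alternatives. With 3 animals per coat colour, changes of the size of the intervals given could not be shown.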
